A study of Danio rerio with 12 samples.

Results

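The genes that write and remove DNA methylation were followed through 12 adult zebrafish brains. These were the maintenance methyltransferase gene *dnmt1*, 2 gene IDs listed as *DNMT3A* (ENSDARG00000005394 and ENSDARG00000015566), 4 *dnmt3b* genes (*dnmt3ba*, *dnmt3bb.1*, *dnmt3bb.2* and *dnmt3bb.3*) and the Tet genes *tet1*, *tet2* and *tet3*. The 10 genes were taken by symbol or ID from the 32520 gene IDs measured, without a cutoff on their values. They were chosen with earlier results of these data known. Both *DNMT3A* genes are kept under their IDs, because the names used here do not tell them apart. The ID listed simply as *DNMT3B* was taken as *dnmt3bb.1*, since it stood in the row next to *dnmt3bb.2* and its name is a RefSeq synonym of *dnmt3bb.1*. RefSeq gives the same synonym to *dnmt3ba*, which was listed under an ID of its own.

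RNA sequencing was carried out on 6 wild-type brains (gr +/+) and 6 GR-mutant brains (gr s357/s357), 1 poly(A)-selected library per brain. The s357 allele is a missense change in *nr3c1*, the single glucocorticoid receptor gene of zebrafish, and was carried in every cell from fertilisation. All fish were males aged 22 months from crosses of heterozygous parents, without treatment, and their brains were taken in the morning complete with olfactory bulbs and pituitary. The wild-type samples are titled WTTL and the mutant samples GRMut, and the titles do not say what TL stands for. After genotyping, wild-type and GR-mutant fish lived in separate tanks, so genotype and tank cannot be told apart. The comparison asks which transcripts differ in the brain when the glucocorticoid receptor does not work, and here it is read for the enzymes that act on DNA methylation themselves.

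DNA methylation in vertebrates sits mainly on cytosines of CpG dinucleotides. Dnmt1 copies the mark onto the new strand after DNA replication, whereas enzymes of the Dnmt3 family place methyl groups on sites that had none. Tet enzymes oxidise 5-methylcytosine to 5-hydroxymethylcytosine and further products, which can be cut out by base excision repair and replaced with unmodified cytosine. In the mammalian brain Dnmt3a and the Tet enzymes stay expressed in neurons that no longer divide, and 5-hydroxymethylcytosine is more abundant there than in most tissues. Zebrafish carry several *dnmt3* genes through gene duplication, and it is not known from these data which cell types express each of them.

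Levels are given as normalised counts, the reads of a gene divided by a size factor for its library. The libraries held 24407683 to 37548901 reads assigned to genes. Mitochondrial transcripts made up 6.07 to 7.81% of the normalised counts in 11 libraries and 10.1% in wild-type replicate 1. The *nr3c1* transcript lay between 4107 and 4567 normalised counts in wild-type and between 4669 and 4955 in GR-mutant brains. It was called higher in GR-mutant brains (log2 fold change 0.15, adjusted p = 0.0160, limma). The missense allele leaves the RNA in place, so the transcript gives no check of the labels. Among the 20114 genes that passed the filter on low values, 3523 (17.5%) differed between genotypes at an adjusted p under 0.05 (limma, Benjamini-Hochberg over all genes tested), of which 1527 (7.59%) rose and 1996 (9.92%) fell in GR-mutant fish. With all libraries scaled to the same total the split became 3020 higher and 1313 lower, so the balance of the directions depends on the scaling.

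Of the 10 genes, 9 passed the filter of at least 10 normalised counts in at least 6 libraries, and *dnmt3bb.2* did not. In GR-mutant brains *dnmt3bb.3* was 1.31-fold and the *DNMT3A* gene ENSDARG00000005394 1.44-fold the wild-type level, and both passed the test. No other tested member passed. In the lower direction limma and edgeR called 0 members and DESeq2 called 1, *tet3*, which was also the 1 member with an unadjusted p under 0.05 there. These 2 of 9 tested members stand beside 17.5% of all genes called in either direction and 7.59% called higher, so the number of members called was close to the rate over all genes. The log2 fold change (GR-mutant minus wild-type) was above 0 for 7 members and below 0 for *tet1* and *tet3*. All 6 tested methyltransferase genes were on the positive side, as were 51.9% of all genes tested, and 4 of the 6 did not pass the test. For *dnmt3ba* and *dnmt3bb.1* the sign turned when single libraries were left out. The median log2 fold change of the 9 members was 0.11, against 0.01 over all genes tested. Whole brains were sequenced, so a change in the number of cells of a type and a change in RNA per cell cannot be told apart.

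**Figure D1:**
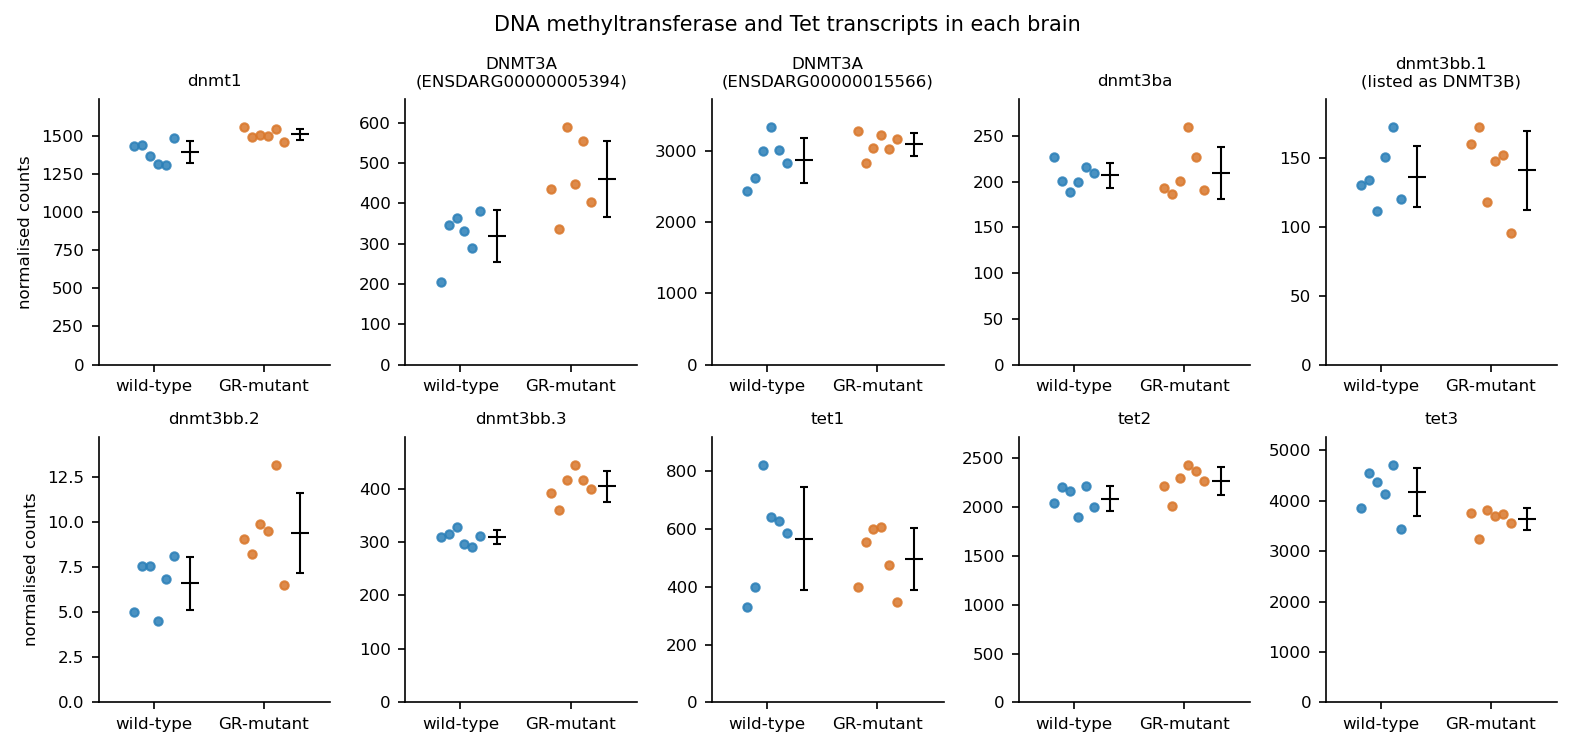
Normalised counts (vertical axes, each starting at 0) of the 10 genes in each of 6 wild-type (blue) and 6 GR-mutant (orange) brains; each point is 1 library, and the bar beside each group is the mean ± SD. The ranges of the genotypes are separate only for *dnmt3bb.3*, at 292 to 328 in wild-type and 359 to 444 in GR-mutant brains.

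*dnmt3bb.3*, 1 of the de novo methyltransferase genes of the duplicated *dnmt3b* group, was the clearest difference. Its normalised counts were 309, 315, 328, 296, 292 and 312 in wild-type replicates 1, 2, 3, 4, 5 and 7. In GR-mutant replicates 1 to 6 they were 392, 359, 416, 444, 416 and 398. Every GR-mutant brain lay above every wild-type brain, a separation that 3.35% of all genes tested showed in this direction and 4.92% in the other. The means were 309 ± 13.1 and 404 ± 28.5 (SD, n = 6 each), a log2 fold change of 0.39 (SE 0.07, 95% interval 0.24 to 0.53, adjusted p = 0.00176, limma). By p it stood at rank 623 of the 20114 genes. The spread among wild-type brains (coefficient of variation 4.23%) was below the 5.80% that counting error alone gives at this depth, and among GR-mutant brains it was 7.05% against 4.83%. The call held in each of the 12 fits that left out 1 library, with log2 fold changes of 0.36 to 0.42.

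Of the other *dnmt3b* genes, *dnmt3ba* and *dnmt3bb.1* showed no such difference. *dnmt3ba*, another de novo methyltransferase gene, had normalised counts of 226, 201, 188, 199, 216 and 209 in wild-type brains. In GR-mutant brains its normalised counts were 193, 186, 201, 259, 227 and 191. The GR-mutant range surrounded the wild-type range, and the log2 fold change was 0.01 (SE 0.10, 95% interval -0.20 to 0.22, adjusted p = 0.948, limma). The *dnmt3bb.1* gene is known in zebrafish embryos for its part in blood stem cells. It was counted at 130.1, 134, 112, 150.5, 172 and 120.1 in wild-type brains. Its GR-mutant counts were 159.9, 172, 118, 148, 152 and 95.5. The genotypes overlapped over nearly their whole ranges, with a log2 fold change of 0.03 (SE 0.16, 95% interval -0.30 to 0.37, adjusted p = 0.906, limma). For both genes the sign of the difference turned when single libraries were left out.

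*dnmt3bb.2* was barely detected. Its reads numbered 4, 8, 6, 4, 7 and 10 in wild-type and 10, 9, 12, 8, 12 and 8 in GR-mutant libraries. The values corresponded to 6.60 ± 1.48 and 9.39 ± 2.20 normalised counts (SD, n = 6 each). Counting error alone gives coefficients of variation of 39.2% and 31.9% at these read numbers, above the 22.5% and 23.5% seen among brains. In a fit without the filter its log2 fold change was 0.45 (SE 0.26, adjusted p = 0.315, limma). In normalised counts 5 GR-mutant brains lay above the highest wild-type brain (8.11), and replicate 6 (6.48) fell within the wild-type range. The fit did not pass, and at these read numbers it cannot decide whether the genotypes differ.

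*dnmt3bb.3*, *dnmt3bb.2* and *dnmt3bb.1* occupied consecutive rows of the deposited tables, and RefSeq places all 3 on the same chromosome. Reads that fit more than 1 of such related genes may not have been counted for any of them, and how this bears on the counts was not tested. Of the 6 gene IDs flanking the cluster in the tables, 3 were tested and 0 passed in limma, 1 had an unadjusted p under 0.05, and edgeR and DESeq2 each called 1. This was *fbxo44.9*, named after its values were seen, an F-box gene with 11.3 to 16.3 normalised counts in wild-type brains, 127, 146 and 139 in GR-mutant replicates 1, 4 and 6, and at most 17.3 in replicates 2, 3 and 5 (log2 fold change 1.55, adjusted p = 0.123, limma). Those 3 brains had *dnmt3bb.3* counts of 392, 444 and 398, which include the highest GR-mutant value and 2 of the 3 lowest. *fbxo44.10*, the next row and also named after its values were seen, did not pass the filter on low counts. It had 64.2, 96.4 and 75.3 normalised counts in the same 3 GR-mutant brains and at most 13.6 in every other brain. *COMMD7*, on the other side of the cluster, had means of 411 and 415 (log2 fold change 0.01, adjusted p = 0.942, limma).

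Both *DNMT3A* genes encode de novo methyltransferases of the kind that in mammals methylates DNA in maturing neurons. The lower-count gene, ENSDARG00000005394, was counted at 205, 347, 363, 331, 289.6 and 382 in wild-type brains. In GR-mutant brains it was counted at 435, 335, 589, 448, 555 and 402. Of the 6 GR-mutant brains 5 exceeded the highest wild-type brain, and replicate 2 lay within the wild-type range. The means of 320 ± 64.3 and 461 ± 95.2 (SD, n = 6 each) gave a log2 fold change of 0.53 (SE 0.16, 95% interval 0.18 to 0.88, adjusted p = 0.0401, limma). Of 6 gene IDs in the neighbouring rows 2 were tested. Limma and edgeR called 0 of them, 1 had an unadjusted p under 0.05 in limma, and DESeq2 called the same 1. That was *GNPAT*, an enzyme of ether lipid synthesis named after its values were seen. It had 42.5 to 82.1 normalised counts in wild-type and 70.5 to 105.1 in GR-mutant brains (log2 fold change 0.53, adjusted p = 0.0559, limma).

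That call was close to the threshold. It was lost in 7 of the 12 fits without 1 library, with adjusted p (limma) of 0.0606, 0.0631 and 0.0721 without wild-type replicates 1, 4 and 5, and 0.0629, 0.0861, 0.0619 and 0.0899 without GR-mutant replicates 1, 3, 4 and 5. Across these 12 fits the log2 fold change stayed between 0.41 and 0.61. The lowest value came without wild-type replicate 1, which had the lowest count of this gene (205) and 10.1% mitochondrial counts. Whether the mitochondrial share bears on this result was not tested. GR-mutant replicates 3 and 5, with the highest counts of this gene, also had the highest summed counts of the pituitary marker list, 87419 and 42521 against 389 to 23086 in the other GR-mutant libraries. Among wild-type brains the highest pituitary sum, 46116 in replicate 2, went with an intermediate count of 347. The part of the pituitary in this result was not tested.

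The second *DNMT3A* gene, ENSDARG00000015566, was counted at 2438, 2618, 3002, 3333, 3009 and 2834 in wild-type brains. Its GR-mutant counts were 3277, 2837, 3047, 3232, 3028 and 3165. The lowest 3 brains were wild-type, but so was the highest. The log2 fold change of 0.11 (SE 0.07, 95% interval -0.03 to 0.26, adjusted p = 0.270, limma) did not pass the test.

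*dnmt1*, the maintenance enzyme, had counts of 1435, 1439.9, 1368, 1317, 1306 and 1486 in wild-type brains. In GR-mutant brains the counts were 1555, 1495, 1508, 1499, 1546 and 1459.9. Here 5 GR-mutant brains exceeded the highest wild-type brain and replicate 6 fell among the wild-type values. The means were 1392 ± 73.0 and 1511 ± 35.3 (SD, n = 6 each). On the log2 scale they differed by 0.12 (SE 0.04, 95% interval 0.02 to 0.21) with an adjusted p of 0.0821 (limma), which did not pass. With libraries scaled to equal totals, where 21.6% of all genes were called, the adjusted p was 0.0116, and with DESeq2 on the recovered reads, which called 21.9% of all genes, it was 0.0496. The spread of *dnmt1* among GR-mutant brains (coefficient of variation 2.34%) was no larger than counting error (2.49%).

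*trdmt1*, a relative of the DNA methyltransferases that methylates transfer RNA, served as an outside comparison. Its counts ranged from 235 to 379 in wild-type and from 252 to 301 in GR-mutant brains, with the mutant range inside that of the wild type. The log2 fold change was -0.07 (SE 0.11, 95% interval -0.30 to 0.17, adjusted p = 0.718, limma).

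The Tet genes differed from each other in direction, and none passed the test. *tet3* was counted at 3868, 4552, 4378, 4127, 4708 and 3441 in wild-type brains. In GR-mutant brains it was counted at 3767, 3249, 3821, 3697, 3748 and 3565. All GR-mutant brains lay below 5 of the wild-type brains, and only wild-type replicate 7 fell among them. The means of 4179 ± 469.8 and 3641 ± 211 (SD, n = 6 each) gave a log2 fold change of -0.19 (SE 0.07, 95% interval -0.35 to -0.04, adjusted p = 0.0827, limma). Without wild-type replicate 7 the log2 fold change was -0.25 and the adjusted p 0.0153, so this library decided the call. DESeq2 on the recovered reads of all libraries gave an adjusted p of 0.0471.

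*tet2*, the Tet gene that in mammals lacks the CXXC domain for binding unmethylated CpG, lay on the other side. Its wild-type counts were 2040.4, 2199, 2157, 1892, 2209.9 and 1995. Its GR-mutant counts were 2217, 2005, 2299, 2426, 2367 and 2266. Again 5 GR-mutant brains exceeded the highest wild-type brain, with replicate 2 as the exception. The log2 fold change was 0.12 (SE 0.06, 95% interval 0.00 to 0.24, adjusted p = 0.152, limma). With equal totals it was 0.20 and passed (adjusted p = 0.0278).

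*tet1* had the widest spread of the 10 genes between wild-type brains. Wild-type counts were 330.3, 398, 819, 639, 626 and 584. GR-mutant counts were 399, 554, 598, 606, 474 and 347. Wild-type replicates 1 and 2 lay at the low end of both genotypes, and wild-type replicates 3, 4 and 5 above every GR-mutant brain. The highest wild-type brain had 2.48 times the count of the lowest, and among GR-mutant brains the ratio was 1.74. Against this spread the log2 fold change of -0.15 (SE 0.21, 95% interval -0.61 to 0.30, adjusted p = 0.650, limma) left changes of either sign within its interval.

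**Figure D2:**
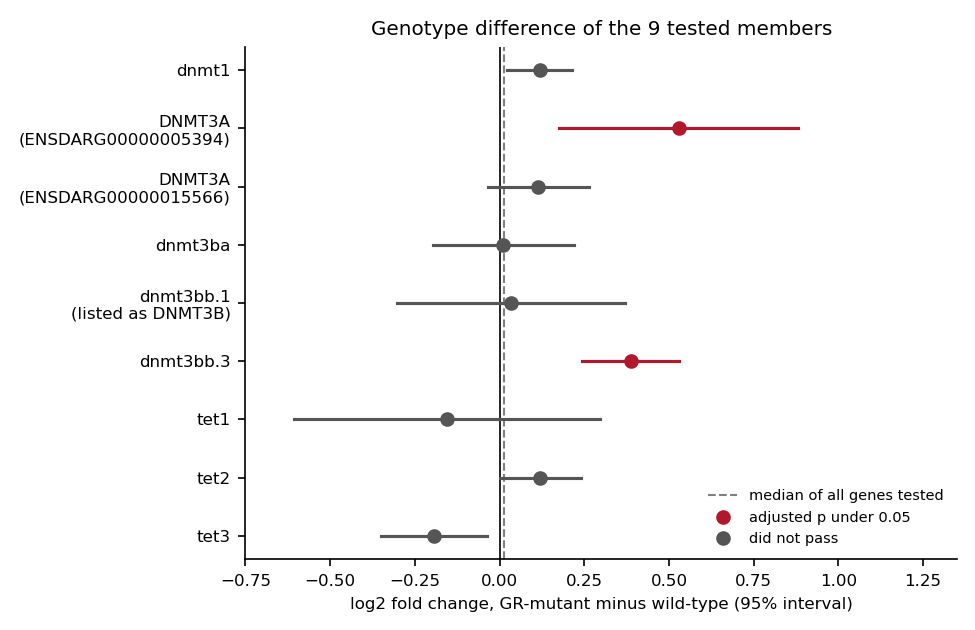
Log2 fold change (GR-mutant minus wild-type, horizontal axis) of the 9 tested genes with 95% intervals from limma; red marks an adjusted p under 0.05, grey a gene that did not pass, and the dashed line is the median of all genes tested (0.01). *dnmt3bb.3* (0.39) and ENSDARG00000005394 (0.53) are the genes in red, and *tet1* has the widest interval (-0.61 to 0.30).

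The scaling between libraries bears on all of these small differences. The deposited median-of-ratios scaling left the wild-type libraries with higher totals (29540644 to 31637122 normalised counts) than the GR-mutant libraries (28539104 to 29513949). With equal totals the median log2 fold change over all genes was 0.09 instead of 0.01, and the called members became *dnmt1*, ENSDARG00000005394, *dnmt3bb.3* and *tet2*, all higher. Under that scaling 4 of 9 members were called, beside 21.6% of all genes tested. The log2 fold change of *tet3* was then -0.11 (adjusted p = 0.324, limma) and no longer near the threshold. Upper-quartile scaling and edgeR on the recovered reads (17.2% of all genes called) called the same 2 members as the deposited scaling.

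**Figure D3:**
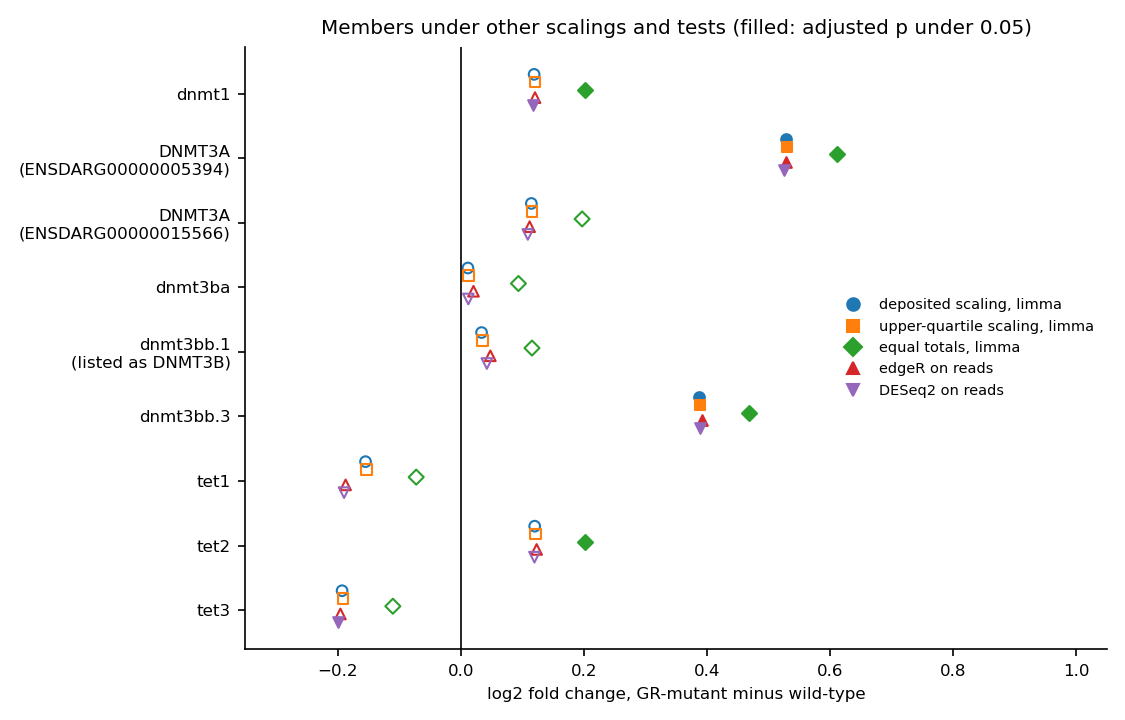
Log2 fold change (GR-mutant minus wild-type, horizontal axis) of the 9 tested genes under 5 combinations of scaling and test, 1 symbol each, filled where the adjusted p was under 0.05. *dnmt3bb.3* and ENSDARG00000005394 are filled throughout, and scaling to equal totals (green) moves every gene to the right, *tet3* from -0.19 to -0.11.

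Ratios between related genes in the same library do not depend on its scaling. For 7 pairs of tested genes of the same class, chosen after the values had been seen, the log2 ratio was compared between genotypes by a two-sided exact permutation test over the 924 assignments of the libraries, adjusted over the 7 pairs by Benjamini-Hochberg. The smallest p this test can give is 0.00216. Because the genes differ in transcript length, a ratio compares brains and not the abundance of the genes.

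The ratio of *tet2* to *tet3* separated the genotypes completely. In wild-type brains the ratio was 0.527, 0.483, 0.493, 0.458, 0.469 and 0.580. In GR-mutant brains it was 0.589, 0.617, 0.602, 0.656, 0.632 and 0.636. The log2 ratio was higher by 0.31 (SE 0.06) in GR-mutant brains (exact permutation p = 0.00216, adjusted p = 0.0152), and higher by 0.29 to 0.36 when single libraries were left out. Neither gene passed the test over all genes alone. The ranges of their ratio lay close together, with the highest wild-type brain at 0.580 and the lowest GR-mutant brain at 0.589. The p of the ratio was adjusted only over the chosen pairs, so it cannot be set beside p adjusted over all genes. Of single genes, 3.35% were higher and 4.92% lower in every GR-mutant brain. How often ratios of other gene pairs separate the genotypes was not tested, so the separation is not shown to be particular to this pair. Between brains of the same genotype *tet2* and *tet3* varied together (r = 0.68 between their deviations from the genotype means over 12 libraries, a description).

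The ratio of *dnmt3ba* to *dnmt3bb.3* was lower in GR-mutant brains. It was 0.733, 0.638, 0.575, 0.672, 0.742 and 0.672 in wild-type and 0.493, 0.518, 0.482, 0.584, 0.545 and 0.480 in GR-mutant brains. The ranges overlapped only at wild-type replicate 3 and GR-mutant replicate 4. The log2 ratio differed by -0.38 (SE 0.07, exact permutation p = 0.00433, adjusted p = 0.0152), and by -0.42 to -0.35 without single libraries. The difference between genotypes was thus unequal between these 2 genes. It restates their log2 fold changes, 0.01 for *dnmt3ba* and 0.39 for *dnmt3bb.3* (limma), which were known when the pair was chosen. The ratio is therefore no separate support for the *dnmt3bb.3* result.

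The remaining 5 pairs did not pass. The ratio of ENSDARG00000005394 to ENSDARG00000015566 had a median of 0.110 in wild-type and 0.136 in GR-mutant brains, a log2 difference of 0.42 (SE 0.16, exact permutation p = 0.0411, adjusted p = 0.0960). *dnmt3bb.1* to *dnmt3bb.3* differed by -0.35 (SE 0.19, exact permutation p = 0.0887, adjusted p = 0.155). For *dnmt3ba* to *dnmt3bb.1* the log2 difference was -0.02 (SE 0.16), for *tet1* to *tet2* -0.28 (SE 0.24) and for *tet1* to *tet3* 0.04 (SE 0.24), with adjusted p of 0.874, 0.382 and 0.874 by the exact permutation test.

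**Figure D4:**
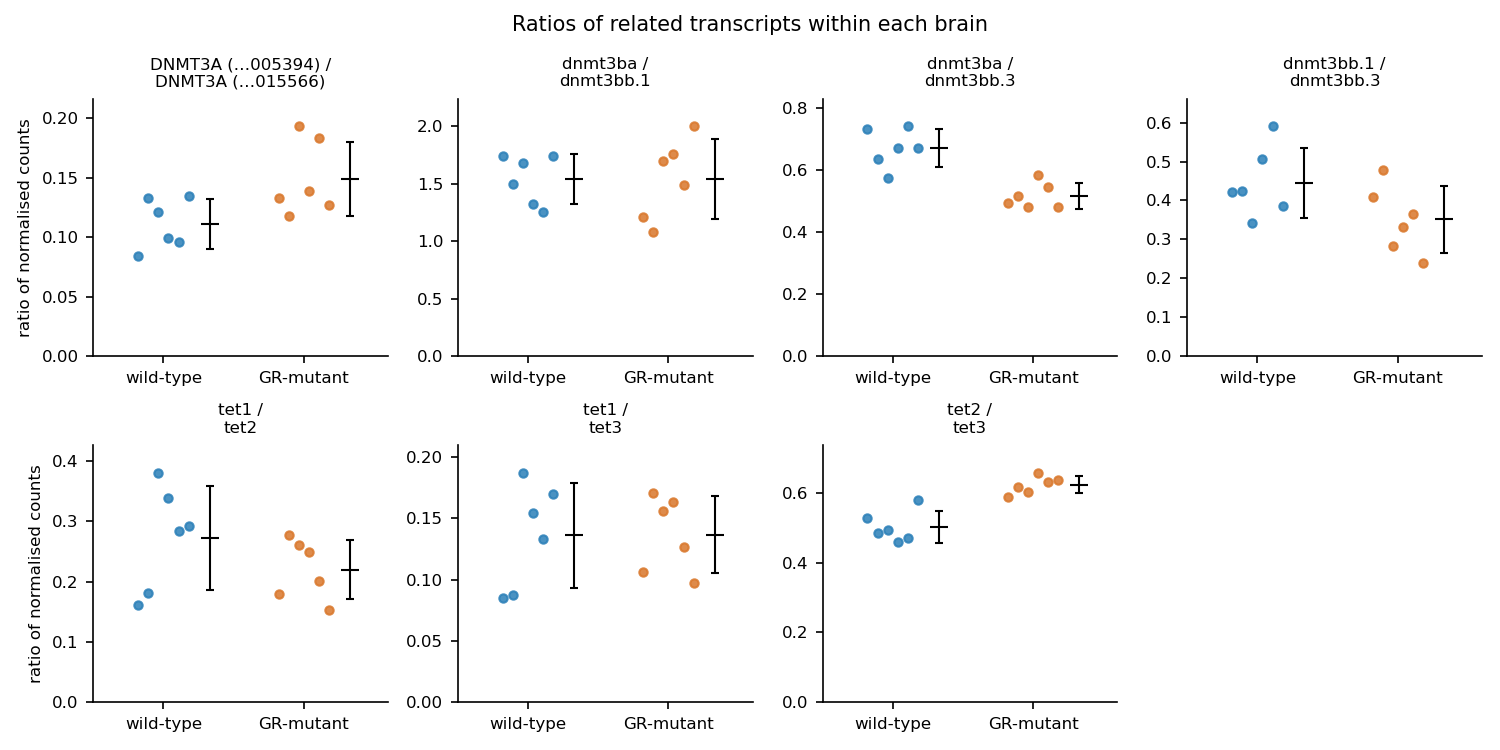
Ratio of normalised counts (vertical axes, starting at 0) for 7 pairs of related genes in each wild-type (blue) and GR-mutant (orange) brain; each point is 1 library and the bar is the mean ± SD of 6. The *tet2* to *tet3* ratio is 0.458 to 0.580 in wild-type and 0.589 to 0.656 in GR-mutant brains, without overlap.

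Brain-to-brain variation differed widely between the members. In wild-type brains the coefficient of variation ran from 4.23% for *dnmt3bb.3* through 5.25% for *dnmt1* to 20.1% for ENSDARG00000005394 and 31.4% for *tet1*. In GR-mutant brains it ran from 2.34% for *dnmt1* to 21.6% for *tet1* and 23.5% for *dnmt3bb.2*, whose counting error alone was 31.9%. For *tet1* counting error accounts for only 4.29% and 4.37%, so its brains differed by far more than the depth explains. For *dnmt3ba* the wild-type spread of 6.55% was within the counting error of 7.07%.

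For *dnmt1* and both called members, the genes whose deviations from the genotype means were most alike over the 12 libraries were listed among 14278 genes with a symbol and a mean of at least 100 normalised counts. These correlations are descriptions, and the libraries share scaling and depth. For *dnmt1* they were *GPR37* (ENSDARG00000033296, an orphan receptor, r = 0.88), *adam10b* (a membrane protease, r = 0.86) and *DNAJC10* (a chaperone of the endoplasmic reticulum, r = 0.85). For ENSDARG00000005394 they were *NRBP2* (ENSDARG00000032951, a pseudokinase, r = 0.94), *ZFYVE28* (r = 0.93) and *CAT* (catalase, r = 0.93). For *dnmt3bb.3* they were *si:dkeyp-73d8.8* (r = 0.95), *cacna1da* (a calcium channel subunit, r = 0.90) and *NABP2* (a single-stranded DNA binding protein, r = 0.89). Of these 9 genes only *NRBP2* differed between genotypes, at 913 ± 117 in wild-type and 1159 ± 122 in GR-mutant brains (SD, n = 6 each, adjusted p = 0.0210, limma).

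Genes around DNA methylation were read from 8 lists. Each is given as its count and median beside the 7.59% higher, 9.92% lower and median of 0.01 over all genes. Among 9 genes listed as partners of methylation maintenance, 1 rose and 0 fell, with a median log2 fold change of 0.18. The number lower was also 0 by edgeR, by DESeq2 and at an unadjusted p under 0.05. The gene that rose was *hdac3*, a histone deacetylase, from 1341 ± 66.0 to 1550.3 ± 48.1 normalised counts (log2 fold change 0.21, adjusted p = 0.00643, limma). *UHRF1*, which guides Dnmt1 to hemimethylated CpG, had means of 72.8 and 85.1 (log2 fold change 0.25, adjusted p = 0.424). *PCNA*, the sliding clamp of replication, had means of 1481 and 1432 (log2 fold change -0.05, adjusted p = 0.664).

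The list of methyl-CpG readers and of relatives with their binding domain comprised 11 tested genes. Of these 2 rose and 1 fell, with a median log2 fold change of 0.16. Whether each protein binds methylated CpG was not tested. *mbd6*, a methyl-CpG-binding domain gene, rose from 478 ± 45.9 to 628 ± 41.3 (log2 fold change 0.40, adjusted p = 0.00262), and its genotypes did not overlap. *mbd1b*, of the same domain family, rose from 1037 ± 63.9 to 1189 ± 69.2 (log2 fold change 0.20, adjusted p = 0.0277). *mbd3b*, whose mammalian counterpart is a subunit of the NuRD chromatin remodelling complex, fell from 4883 ± 480.2 to 4166 ± 290.5 (log2 fold change -0.23, adjusted p = 0.0319). With equal totals 6 of these genes were called higher and 0 lower, with *mbd3b* at an adjusted p of 0.0971 (all limma), so the split within the list depends on the scaling.

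Among 12 genes for CXXC-domain proteins, which bind unmethylated CpG, 2 rose and 0 fell (0 lower by each of the other measures as well), with a median log2 fold change of 0.04. *cxxc5b* rose from 1198 ± 80.7 to 1442 ± 61.6 (log2 fold change 0.27, adjusted p = 0.00440). *kmt2ba*, a histone methyltransferase gene, rose from 1943 ± 147 to 2224 ± 151 (log2 fold change 0.19, adjusted p = 0.0388, limma), with overlapping genotypes.

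The base excision list, which takes over from the Tet enzymes, moved in both directions. Of 16 tested genes 2 rose and 2 fell, with a median log2 fold change of 0.05. *NEIL1*, a DNA glycosylase, fell from 1353 ± 116 to 956 ± 106 (log2 fold change -0.50, SE 0.08, adjusted p = 0.00101). An *UNG* gene (ENSDARG00000042527), encoding the glycosylase that removes uracil from DNA, fell from 69.0 ± 18.4 to 30.8 ± 6.80 (log2 fold change -1.13, SE 0.20, adjusted p = 0.00185). For both genes every GR-mutant brain lay below every wild-type brain. The other *UNG* ID, ENSDARG00000094922, had means of 16.4 and 12.1 and did not pass (log2 fold change -0.45, adjusted p = 0.389, limma). A *TDG* gene (ENSDARG00000086450), the glycosylase that excises the Tet products formylcytosine and carboxylcytosine, rose from 562 ± 33.1 to 659.7 ± 55.5 (log2 fold change 0.23, adjusted p = 0.0317). The other *TDG* gene, ENSDARG00000013004, had means of 994 and 977 and did not pass (log2 fold change -0.02, adjusted p = 0.870). *PARP1*, a sensor of DNA strand breaks, was the fourth gene called, higher by 0.14 on the log2 scale (adjusted p = 0.0350; all limma).

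The S-adenosylmethionine cycle supplies the methyl donor of the DNA methyltransferases. Of 16 tested genes 0 rose (0 also by edgeR, DESeq2 and at an unadjusted p under 0.05) and 1 fell, with a median log2 fold change of -0.07. *MTRR*, which reactivates methionine synthase, fell from 381 ± 22.9 to 294 ± 58.8 (log2 fold change -0.40, adjusted p = 0.0408), a call lost with equal totals (adjusted p = 0.0820) and with edgeR. The folate cycle, which feeds methyl groups into it, had 15 tested genes, of which 0 rose (0 by edgeR and DESeq2, 1 at an unadjusted p under 0.05) and 2 fell, with a median log2 fold change of -0.04. Both encode enzymes of mitochondrial folate metabolism. *mthfd2* fell from 1119.6 ± 163 to 743 ± 75.9 (log2 fold change -0.58, SE 0.10, adjusted p = 0.00142), with no overlap. *SHMT2* fell from 467 ± 43.9 to 369 ± 36.6 (log2 fold change -0.34, SE 0.09, adjusted p = 0.0167, limma), with an adjusted p of 0.0560 when totals were equal.

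The next list held 12 tested genes that make or use 2-oxoglutarate, the cosubstrate of Tet enzymes, or encode Tet partners. Of these, 0 were called by limma, edgeR or DESeq2, and 0 had an unadjusted p under 0.05 in limma. Their median log2 fold change was -0.02. *OGDHL* had the highest log2 fold change of the list, 1.38, with means of 996 and 1453 and an adjusted p of 0.337 (limma). Its wild-type counts ran from 12.5 to 1837 and its GR-mutant counts from 739 to 1861, and the fitted value is a difference of mean log2 values, not the log2 ratio of those means. Histone methyltransferases linked to DNA methylation had 16 tested genes, of which 4 rose and 0 fell (0 lower by edgeR, by DESeq2 and at an unadjusted p under 0.05), with a median of 0.15. *SUZ12* (ENSDARG00000098924), a subunit of Polycomb repressive complex PRC2, rose from 1908 ± 194 to 2404 ± 296 (log2 fold change 0.33, adjusted p = 0.0176). The other *SUZ12* ID, ENSDARG00000070256, had means of 595 and 571 and did not pass (log2 fold change -0.04, adjusted p = 0.863, limma). *NSD2*, which methylates histone H3 on lysine, rose from 454 ± 32.0 to 567 ± 76.9 (log2 fold change 0.31, adjusted p = 0.0298). *EHMT2* (G9a) rose from 533 ± 53.5 to 623 ± 28.5 (log2 fold change 0.23, adjusted p = 0.0359, limma), and *EED*, another PRC2 subunit, was the fourth. For *EZH2*, the catalytic subunit of PRC2, the means were 316 and 298 (log2 fold change -0.06, adjusted p = 0.780).

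**Figure D5:**
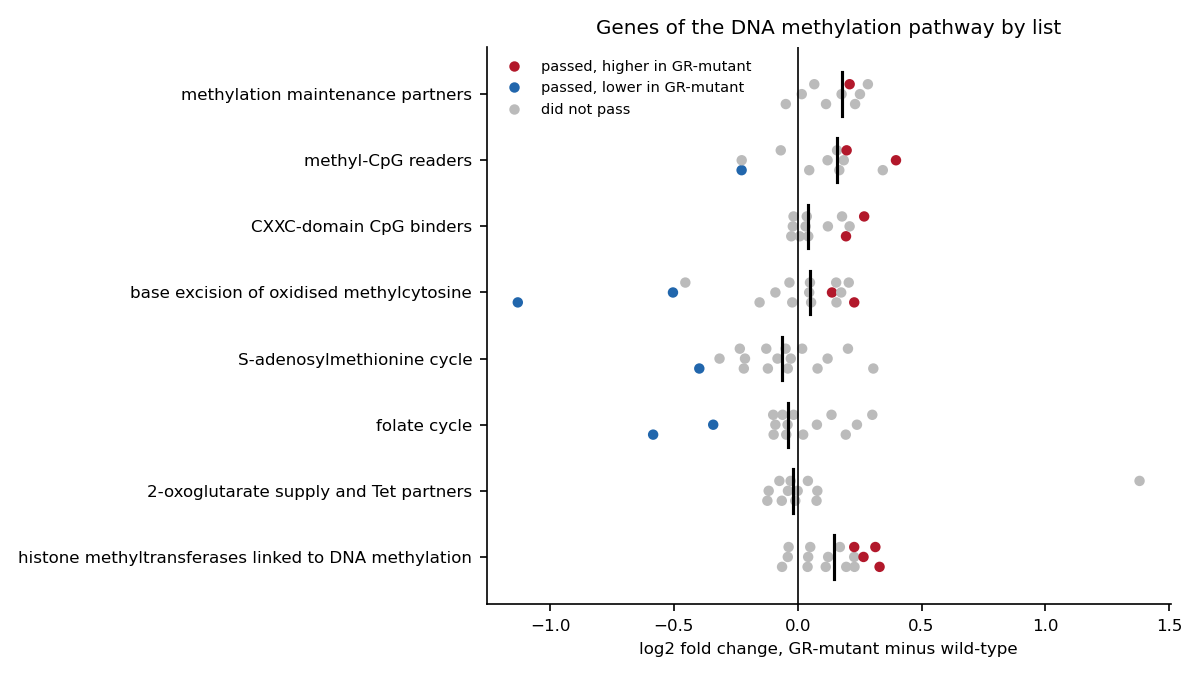
Log2 fold change (GR-mutant minus wild-type, horizontal axis) of every tested gene in 8 lists around DNA methylation; red points passed the test and were higher in GR-mutant brains, blue points passed and were lower, grey points did not pass, and each short vertical bar is the median of its list. Medians run from -0.07 for the S-adenosylmethionine cycle to 0.18 for maintenance partners, and the lowest blue point is *UNG* at -1.13.

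Several of these calls were near the threshold. *hdac3*, *mbd6*, *cxxc5b*, *NEIL1*, *UNG*, *mthfd2*, *SHMT2* and *SUZ12* were called in each of the 12 fits that left out 1 library. *mbd1b* was called in 7 of them, *mbd3b* and *NSD2* in 6, *PARP1* in 5, *TDG* and *MTRR* in 4, and *kmt2ba*, *EHMT2* and *EED* in 3. Besides the genes named above as not overlapping, the genotypes were also separate for *hdac3*, *mbd1b*, *cxxc5b*, *PARP1* and *SHMT2*. Over all genes tested 3.35% were higher and 4.92% lower in every GR-mutant brain.

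Markers of the cell types in the dissected tissue were read as summed normalised counts per library. Proliferation genes, 20 of them tested, summed to 3279 to 4397 in wild-type and 3372 to 4584 in GR-mutant brains, with 1 higher (*MCM7*, a replication licensing factor) and 1 lower (*CCNB1*, a mitotic cyclin). The 17 neuronal markers summed to 348527 to 375515 in wild-type and 325539 to 350320 in GR-mutant brains, with 0 higher (0 by edgeR and DESeq2, 1 at an unadjusted p under 0.05) and 2 lower. Radial glia, the neural progenitors of the fish brain, had 2 higher and 2 lower of 11, with sums of 130132 to 147097 and 111561 to 131335. The lower radial glial sums came with 2 IDs of the glutamine synthetase gene *GLUL*, which fell from 41682 to 31181 (ENSDARG00000099776) and from 13219 to 5289 (ENSDARG00000100003) in the means. *SOX2* and a *FABP7* ID (ENSDARG00000007697) rose (log2 fold change 0.36 and 0.19, adjusted p = 0.00685 and 0.0381, limma). With equal totals the median log2 fold change was 0.0034 for the neuronal list and 0.10 for the radial glial list, instead of -0.08 and 0.02.

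Oligodendrocyte sums were 244638 to 312676 and 181856 to 391287 (1 higher and 1 lower of 10), and microglial sums 22775 to 35546 and 19310 to 36655 (1 higher and 1 lower of 10). Endothelial markers had a median log2 fold change of 0.49 (3 higher and 1 lower of 9) and sums of 3799 to 4425 and 4017 to 5748. Erythrocyte markers had a median of 0.63 (1 higher of 5), with sums of 1205 to 4366 and 1715 to 6679, and pituitary markers a median of 0.55 (1 higher of 9, *POMC*), with sums of 6803 to 46116 and 389 to 87419. A microglial marker ID listed as *MPEG1* (ENSDARG00000078569) was at 0 in every library, and no other marker was. The endothelial sum of 5 GR-mutant brains exceeded the highest wild-type sum, while the erythrocyte and pituitary sums overlapped and differed strongly between brains of both genotypes. Their part in the *dnmt3bb.3* and ENSDARG00000005394 results was not tested.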

How the data were processed

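Poly(A)-selected RNA from 12 brains was sequenced as paired ends. Reads were trimmed by the authors, cleared of ribosomal sequences (SortmeRNA), mapped to GRCz11 and counted per gene by STAR. Size factors from DESeq2 (median of ratios) were then applied, so the deposited signal per gene is a normalised count. The submitters' processing notes name Trimmomatic (3.9), STAR, DESeq2, FastQC and MultiQC. The sources used here do not say which strand was counted.

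Each table held 32520 gene IDs, 29201 of them with a symbol and 6136 sharing it with another ID. Within each library 100% of the values were whole multiples of the value of 1 read (tolerance 0.001), and these recovered reads gave the depths and the input of the count tests. Any pair of libraries differed in the reads of at least 24900 genes. Synonyms and gene order came from RefSeq and from the row order of the tables; the RefSeq assembly is not the build of the files, so no coordinates are given. Reads that fit more than 1 related or overlapping gene may not have been counted.

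Values were taken as log2(normalised count + 1), which understates changes of low genes. The genotypes were compared with limma (3.58.1, R 4.3.3), using a mean-variance trend without a block, in the 20114 genes that reached 10 normalised counts in 6 or more libraries. The threshold was a Benjamini-Hochberg adjusted p of 0.05 over these genes, and differences are GR-mutant minus wild-type throughout. Alternatives were pseudocounts of 0.5 and 5, no filter, a mean of at least 100, upper-quartile scaling, equal totals, a replicate block, no trend, count tests with edgeR (4.0.16) or DESeq2 (1.42.0), and each library left out. The fits were also run on simulated counts, whose outcome is not given here. Figures were drawn with matplotlib 3.10.9.

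The members, lists and tests were chosen with earlier results of these data known. Named genes were the 10 members, *trdmt1*, from each pathway list up to 3 called genes with the smallest p, and for *dnmt1* and each called member the 3 genes most like it. The 7 ratios, their fits without single libraries and the other genes named were chosen after the values had been seen. Sequences, transcript lengths, and the methylation, behaviour and cortisol experiments were not used here. The values of 1 listed gene are not reported here.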

Additional observations from a re-analysis of the deposited data

How the results depend on the processing

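The deposited scaling with limma called 2 members. Other settings called 1 (no filter, no trend) or 4 (equal totals, DESeq2), and fits without single libraries 1 to 3. With the replicate number as a block 1 member was called, *dnmt3bb.3* (adjusted p = 0.0353), and 2340 genes in all against 3523. Same-numbered brains of the genotypes did not vary together (correlations of their deviations -0.01, 0.05, 0.04, 0.08 and -0.15), and a shared number marks no known common origin. Over all genes, fits without single libraries called 2555 to 3452. Pathway genes whose calls depended on the setting include *mbd3b*, *MTRR* and *SHMT2* under equal totals. Of 90 values of single members under other settings, 83 kept their sign and side of the threshold, 4 became stronger and 3 weaker. Without single libraries the log2 fold change of *dnmt3ba* ranged from -0.052 to 0.044 (negative without wild-type replicate 3, at -0.01, and GR-mutant replicates 4, at -0.05, and 5, at -0.01) and that of *dnmt3bb.1* from -0.029 to 0.14 (negative without wild-type replicate 3, at -0.02, and GR-mutant replicates 1, at -0.01, and 2, at -0.03). The cause of these changes was not tested. In fits without single libraries the exact permutation p of the ratios was not adjusted over the pairs. It was under 0.05 for *tet2* to *tet3* and for *dnmt3ba* to *dnmt3bb.3* whichever of the 12 libraries was left out. For ENSDARG00000005394 to ENSDARG00000015566 it was under 0.05 in 5 of 12. With all libraries this pair had an unadjusted p of 0.0411 but did not pass after adjustment (adjusted p = 0.0960, exact permutation test). The unadjusted p cannot be set beside the adjusted p of the main test. Depth limits *dnmt3bb.2*, with at most 12 reads in a library.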

Other observations

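Among all genes with a symbol and a mean of at least 100 normalised counts, the gene most like *tet1* in its deviations from the genotype means was *KLF9*, a Krüppel-like transcription factor gene known to respond to glucocorticoids (r = 0.93 over 12 libraries). It was looked up after the values of *tet1* had been seen, and the correlations are descriptions. In wild-type brains *KLF9* was counted at 1828, 2678, 6218, 5292, 4294 and 4612, in the replicates where *tet1* was at 330.3, 398, 819, 639, 626 and 584. The lowest 2 brains and the highest 2 brains were the same for both genes (r = 0.98, n = 6). In GR-mutant brains *KLF9* lay between 58.3 and 117, far below its wild-type range, while *tet1* lay between 347 and 606. The brain with the lowest count was again the same for both genes, replicate 6 (r = 0.79, n = 6). *KLF9* was therefore much lower in GR-mutant brains whereas *tet1* kept an overlapping level. *KLF9* was picked as the best match among 14278 genes on these same deviations, so its agreement with *tet1* within genotypes follows from that choice. The best matches of the other tested members had r from 0.86 (*proser3* with *dnmt3ba*) to 0.95 (*gramd1a* with ENSDARG00000015566). Why brains of the same genotype differed was not tested.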
